A study of Mus musculus with 20 samples.

Results

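The genes described here are 33 mouse genes of the ATF4 response: transcription factors of the integrated stress response, the feedback and stress effectors they switch on, enzymes that make serine, glycine, proline, cysteine and asparagine, and cytosolic aminoacyl-tRNA synthetases. They were chosen by symbol from textbook knowledge of the pathway, with earlier results of these data known. Of them, 30 were read by 1 transcript cluster each among the 20193 genes of both deposited sheets, and Atf5, Ddit3 and Aars are not analysed here. ATF4 is a transcription factor whose messenger RNA is translated best when the initiation factor eIF2 is phosphorylated, as happens when amino acids run short or unfolded protein gathers in the endoplasmic reticulum (ER). It then raises the enzymes, transporters and synthetases that restore amino acid supply, together with TRIB3 and PPP1R15A, which feed back to close the response. In muscle, the change from dividing myoblast to fibre calls for new protein on a large scale, and signalling through eIF2 is known to be active in differentiating myoblasts.

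The RNA came from C2C12 cells, an immortalised mouse myoblast line and not primary muscle, and was hybridised to Affymetrix arrays. The arrays form 2 sets, with 2 arrays per group that the labels call biological replicates. In the scramble set (8 arrays), cells at day 2 of differentiation had received siMyolinc.1, siMyolinc.2 or siMyolinc.3, the 3 siRNAs that target Myolinc (a long noncoding RNA), or a scramble siRNA (siScr), each at 10 nM. In the time-course set (12 arrays), untransfected cells were taken undifferentiated in growth medium with 20% foetal bovine serum and high glucose (Undiff, day 0) or at day 1 (Day_1) and day 2 (Day_2) in differentiation medium with 2% horse serum and low glucose, and the 3 siMyolinc groups at day 2 stand beside them. The 6 siMyolinc hybridisations serve both sets, so the distinct arrays number 14, and the sets were normalised separately, so that levels are set against each other only within a set. No siScr array lies in the time-course set. The labels give no culture batch or harvest date, so a day cannot be told apart from the batch in which it was harvested. Day_1 and Day_2 also differ from Undiff in serum and glucose, and differentiation cannot be told apart from that change of medium.

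Levels are log2 array signals, a change is a difference of 2 group means on that scale, and a gene is called when limma's adjusted p (Benjamini-Hochberg over all 20193 genes, two-sided) is under 0.05. With 2 arrays a group, p-values measure the spread between arrays of a group. Replicate arrays correlated at 0.996 to 0.999 across genes. Array medians lay between 7.05 and 7.11 in the scramble set and between 7.54 and 7.68 in the time-course set. The median standard error of a change between 2 time-course groups was 0.0801. The myoblast markers Myod1, Myf5, Des, Cdh15 and Itga7 had group means between percentiles 44.0 and 99.0 of all genes in the time-course set. Their mean level per array was 10.50 and 10.51 in Undiff and 10.66 and 10.66 at Day_2. This list therefore does not tell undifferentiated from differentiating cells. In the time-course set, markers of adipocytes and endothelium stood at no more than percentile 50.2 in any group, and those of macrophages at no more than 60.7. The low end of the myoblast range thus overlaps the adipocyte and macrophage ranges.

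On the first day of differentiation the ATF4 response rose across nearly all its measured members. Of the 30 members, 27 rose, 1 fell and 2 were not called at Day_1 against Undiff, where 48.1% of all genes were called (27.0% higher and 21.1% lower). Their median change was 0.67, against 0.11 for all genes. All 4 transcription factors rose (median 1.17), as did 4 of 5 feedback and stress effectors (median 2.21), 9 of 10 enzymes (median 0.60) and 10 of 11 synthetases (median 0.57). The 2 Day_1 arrays lay wholly above the 2 Undiff arrays for 28 members, against 49.7% of all genes. In RNA of whole cultures, fewer cells of a type and less RNA per cell cannot be told apart. Centring each array on its 75th percentile instead moves every gene's change by 0.15, and the members' median lay 0.56 above that of all genes, a distance that such centring cannot alter. Of all called genes, 56.2% were higher in the main scaling and 78.9% under this centring.

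Among the transcription factors, Atf3, a partner and target of ATF4 that is induced early in many stresses, read 9.05 and 9.08 in Undiff, 11.53 and 11.61 at Day_1 and 10.20 and 10.38 at Day_2. Both Day_1 arrays lay above all others of the 3 untransfected groups. The change at Day_1 against Undiff was 2.51 ± 0.08 (SE, adjusted p = 1.9e-09), a fold of 5.69. Atf4 itself, which is controlled largely through translation, read 10.24 and 10.14 in Undiff, 10.97 and 10.99 at Day_1 and 10.26 and 10.21 at Day_2, and changed by 0.79 ± 0.06 (SE, adjusted p = 1.5e-06). Its Undiff and Day_2 arrays overlapped. Nupr1, a small chromatin protein that is induced by stress, read 9.83 and 9.68 in Undiff, 11.30 and 11.16 at Day_1 and 10.46 and 10.68 at Day_2. The Nupr1 arrays of the 3 groups did not overlap, with Undiff lowest, and Day_1 stood 1.48 ± 0.09 (SE) above Undiff. Cebpb, a bZIP factor that can pair with ATF4, read 8.45 and 8.48 in Undiff, 9.39 and 9.28 at Day_1 and 8.50 and 8.47 at Day_2, with Day_1 alone high and a change of 0.87 ± 0.07 (SE).

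The feedback and stress effectors had the largest median change of the 4 roles. Trib3, a pseudokinase that is induced by ATF4 and dampens it, read 8.52 and 8.41 in Undiff, 10.76 and 10.73 at Day_1 and 8.70 and 8.98 at Day_2, a change at Day_1 of 2.28 ± 0.08 (SE, adjusted p = 4.2e-09). Ppp1r15a (GADD34), the phosphatase subunit that removes phosphate from eIF2, read 8.08 and 8.12 in Undiff, 10.61 and 10.49 at Day_1 and 8.19 and 8.31 at Day_2. Its Day_1 arrays were 5.48-fold above Undiff (2.45 ± 0.07 on the log2 scale, SE), and Day_2 was not called against Undiff at 0.15. Chac1, a glutathione-degrading enzyme, read 10.17 and 10.06 in Undiff, 12.37 and 12.28 at Day_1 and 10.83 and 11.08 at Day_2, so that its Day_1 arrays stood clear of both other days and Day_2 stayed above Undiff. Sesn2, a leucine sensor that restrains mTORC1, read 9.24 and 9.18 in Undiff, 10.74 and 10.66 at Day_1 and 9.47 and 9.56 at Day_2, with the same order of the days and a change of 1.49 ± 0.07 (SE) at Day_1. Ddit4 (REDD1), another brake on mTORC1, was the effector that was not called, at -0.21 (adjusted p = 0.0614). It was called as lower with dim genes left out (adjusted p = 0.0421) and under limma's intensity trend with a robust prior (adjusted p = 0.0250). Without 1 Day_1 array its change was -0.33.

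**Figure D1:**
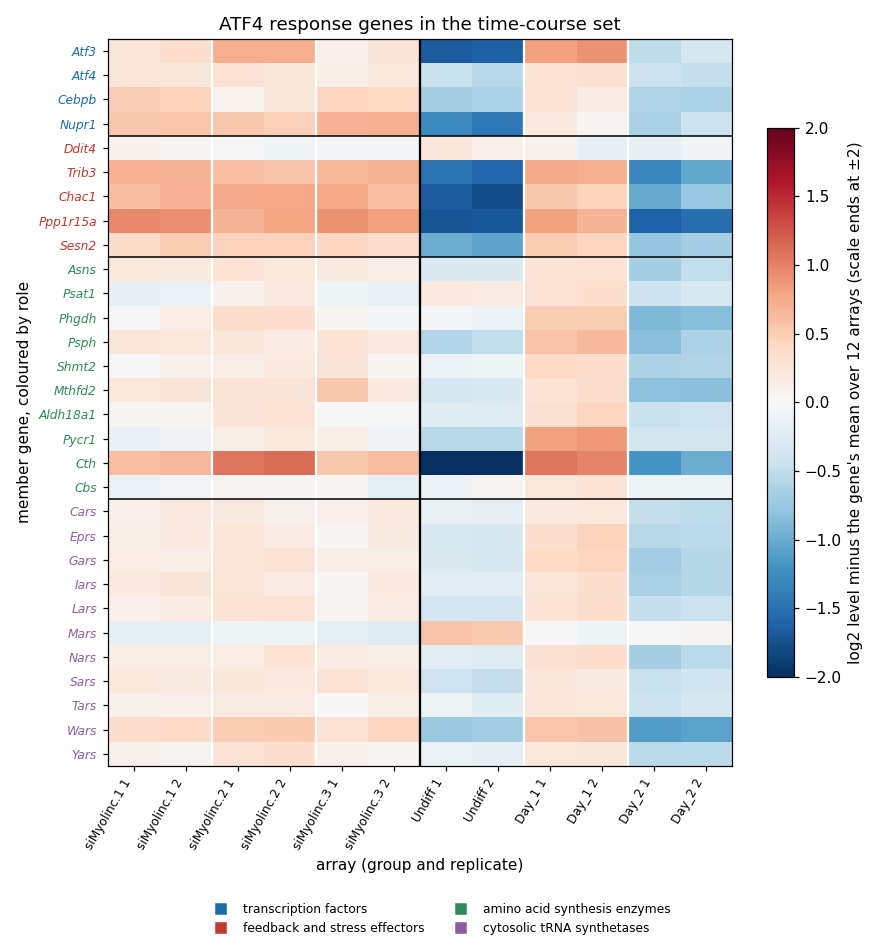
Heat map of the 30 measured members (rows, coloured by role) in the 12 arrays of the time-course set (columns), as log2 level minus the gene's mean over the 12 arrays, with colours ending at ±2. In the untransfected groups the Day_1 arrays are high and the Undiff and Day_2 arrays low for most rows. The 6 siMyolinc arrays on the left resemble Day_1 in colour for many rows. Rows that are pale or opposite in at least some siMyolinc arrays include Mars, Ddit4, Cbs, Psat1, Pycr1 and Phgdh.

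Among the enzymes, Cth, the cystathionine gamma-lyase that makes cysteine, changed most of all members. It read 7.55 and 7.42 in Undiff, 10.79 and 10.72 at Day_1 and 8.55 and 8.74 at Day_2, which put Day_1 9.63-fold above Undiff. On the log2 scale the change was 3.27 ± 0.08 (SE, adjusted p = 6.0e-10). Its neighbour in the pathway, Cbs, moved by only 0.28 (adjusted p = 0.0199). Leaving out 1 Undiff array (adjusted p = 0.176) or 1 Day_1 array (adjusted p = 0.111) ended the call. Pycr1, the mitochondrial enzyme of the last step of proline synthesis, read 9.66 and 9.65 in Undiff, 11.04 and 11.09 at Day_1 and 9.84 and 9.85 at Day_2, a change of 1.40 ± 0.07 (SE). Aldh18a1, which starts proline synthesis from glutamate, changed by 0.62 ± 0.06 (SE).

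The serine branch moved less evenly. Psph, the phosphatase that completes serine synthesis, read 9.01 and 9.10 in Undiff, 10.16 and 10.24 at Day_1 and 8.75 and 8.95 at Day_2, a change of 1.14 ± 0.08 (SE). Phgdh, which commits glycolytic carbon to serine, changed by 0.58 ± 0.07 (SE), while Psat1, the aminotransferase between them, was not called at 0.12 (adjusted p = 0.144). Psat1 was called as higher under 75th-percentile centring (adjusted p = 0.00475). Shmt2 and Mthfd2, which pass the one-carbon unit of serine to folate in mitochondria, changed by 0.48 and 0.64. Asns, asparagine synthetase and the best known ATF4 target among the enzymes, read 12.53 and 12.53 in Undiff, 13.09 and 13.09 at Day_1 and 12.15 and 12.32 at Day_2, a change of 0.56 ± 0.07 (SE, adjusted p = 4.0e-05).

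The synthetases charge tRNAs with their amino acids for translation in the cytosol. Wars, the tryptophanyl-tRNA synthetase, read 10.81 and 10.87 in Undiff, 12.12 and 12.14 at Day_1 and 10.45 and 10.49 at Day_2 and rose most among them, by 1.29 ± 0.06 (SE). The 9 others that rose (Cars, Eprs, Gars, Iars, Lars, Nars, Sars, Tars and Yars) changed by 0.36 (Yars) to 0.72 (Gars), all below the 4 effectors that were called. Mars, the methionyl-tRNA synthetase, went the other way. Its transcript cluster read 10.80 and 10.75 in Undiff, 10.22 and 10.14 at Day_1 and 10.22 and 10.29 at Day_2, a change of -0.60 ± 0.06 (SE, adjusted p = 9.6e-06), with both Day_1 arrays below both Undiff arrays.

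**Figure D2:**
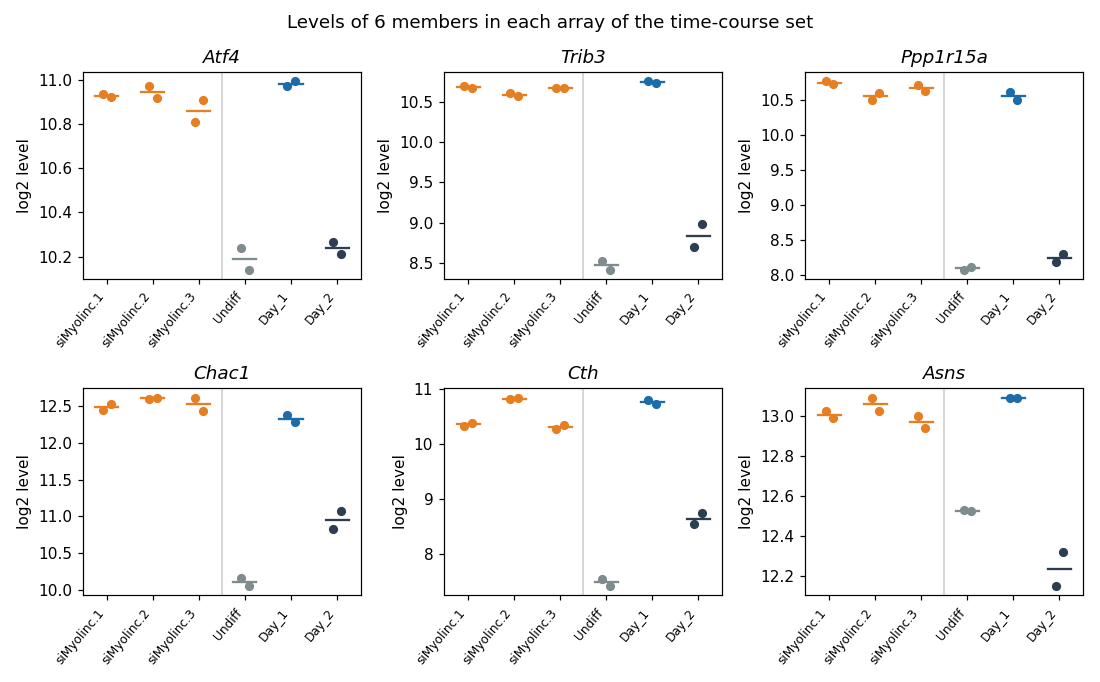
Log2 levels of Atf4, Trib3, Ppp1r15a, Chac1, Cth and Asns in each array of the time-course set (points, 2 per group; bars are group means). In each panel the Day_1 arrays and the siMyolinc arrays lie above the Day_2 arrays, and the distance is largest for Ppp1r15a, Cth and Trib3.

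The promoters of the members were read from RefSeq (GRCm38.p6, 250 bases before to 50 after each gene's start) because these genes moved together. Of the 30 measured members, 25 had an entry there. The letters TGATGNAA, the core of the element that ATF4 and a C/EBP partner bind, or their reverse complement TTNCATCA, occurred on either strand in 10 of the 25 (40%), against 3.97% of 32851 promoters of the same length and 4.51% of 27025 genes. The members had been listed as ATF4 genes, so this share is a description of that choice. The 10 are Atf3, Nupr1, Trib3, Chac1, Asns, Pycr1, Gars, Iars, Tars and Yars. A match is a run of letters and not a shown binding site. The 5 of them that changed most at Day_1 are printed 5′ to 3′ on the gene's strand, with the match in capitals. Atf3 lies at chr1:191183284-191183583 on the minus strand, Trib3 at chr2:152344011-152344310 on the minus strand, Chac1 at chr2:119350992-119351291 on the plus strand, Nupr1 at chr7:126625421-126625720 on the minus strand and Pycr1 at chr11:120643699-120643998 on the minus strand. The match begins at -110, 14, -193, -110 and -103 relative to the gene's start, in that order of genes.
Atf3: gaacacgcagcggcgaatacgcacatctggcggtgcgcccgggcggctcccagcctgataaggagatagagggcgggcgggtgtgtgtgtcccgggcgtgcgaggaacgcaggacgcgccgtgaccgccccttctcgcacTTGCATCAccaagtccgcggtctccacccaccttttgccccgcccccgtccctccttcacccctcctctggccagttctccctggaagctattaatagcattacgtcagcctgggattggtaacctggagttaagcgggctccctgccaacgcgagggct
Trib3: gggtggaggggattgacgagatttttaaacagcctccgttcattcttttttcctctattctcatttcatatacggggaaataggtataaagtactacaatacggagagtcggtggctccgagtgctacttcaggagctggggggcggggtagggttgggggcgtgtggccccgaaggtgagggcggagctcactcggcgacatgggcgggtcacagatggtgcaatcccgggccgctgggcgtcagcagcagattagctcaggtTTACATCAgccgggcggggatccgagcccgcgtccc
Chac1: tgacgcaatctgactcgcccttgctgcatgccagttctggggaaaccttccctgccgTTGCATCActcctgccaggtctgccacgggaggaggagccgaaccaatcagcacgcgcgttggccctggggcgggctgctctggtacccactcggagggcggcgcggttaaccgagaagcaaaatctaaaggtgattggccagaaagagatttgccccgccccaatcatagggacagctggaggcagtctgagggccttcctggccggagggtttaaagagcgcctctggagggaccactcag
Nupr1: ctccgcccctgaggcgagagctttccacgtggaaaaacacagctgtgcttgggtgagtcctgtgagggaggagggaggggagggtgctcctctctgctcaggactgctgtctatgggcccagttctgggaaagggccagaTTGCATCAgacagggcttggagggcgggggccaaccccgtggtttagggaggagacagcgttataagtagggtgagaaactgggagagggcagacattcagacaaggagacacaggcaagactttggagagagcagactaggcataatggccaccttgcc
Pycr1: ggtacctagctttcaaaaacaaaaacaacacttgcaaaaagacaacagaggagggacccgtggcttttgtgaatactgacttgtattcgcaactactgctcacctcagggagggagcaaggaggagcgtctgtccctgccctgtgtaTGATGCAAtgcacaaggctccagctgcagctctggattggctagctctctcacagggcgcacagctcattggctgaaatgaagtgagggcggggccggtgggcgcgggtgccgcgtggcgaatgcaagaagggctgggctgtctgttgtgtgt
In Trib3 the match lies downstream of the start, and in the other 4 it lies upstream. Trib3, Atf3, Nupr1 and Chac1 hold the reverse complement, and Pycr1 holds TGATGCAA on the gene's strand.

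Related genes outside the 33 moved in both directions at Day_1. The counts below stand beside 48.1% of all genes called at Day_1 against Undiff, 27.0% higher and 21.1% lower. Of 13 other ATF4 targets, 12 rose and 1 fell, led by Herpud1 (2.18), a protein of ER-associated degradation, Gpt2 (1.08) and Got1 (1.02), both aminotransferases, and Fgf21 (0.84), a hormone that stressed muscle can secrete. All 15 measured ER chaperones and partners of the unfolded protein response rose as well (median 1.51), with Dnajb9 at 2.51 and Hyou1 at 2.21. Of 10 cytosolic synthetases and synthetase-complex proteins that are no members, 2 rose and 4 fell: Dars (-0.60), Kars (-0.53), Hars (-0.51) and the scaffold protein Aimp2 (-0.49). Mitochondrial synthetases showed 2 higher and 7 lower of 17, with Sars2 at -0.68. The eIF2 kinases, subunits and exchange factor genes showed 2 higher and 8 lower of 15. Eif2ak3 (PERK), the eIF2 kinase of the ER, changed by 0.19 (adjusted p = 0.0282), and Eif2ak4 (GCN2), the kinase that senses uncharged tRNA, by -0.34 (adjusted p = 0.00552). Other enzymes of serine, folate, proline and glutamine metabolism divided evenly, with 5 higher and 5 lower of 18, and the mitochondrial folate enzyme Aldh1l2 stood out at 2.21. The mean level over 6 markers of differentiating muscle was 7.36 and 7.37 in Undiff, 7.86 and 8.06 at Day_1 and 9.92 and 10.01 at Day_2, with 5 of 6 called higher at Day_1. Of 5 myoblast markers, 1 was higher and 3 were lower at Day_1. Their mean level was 10.50 and 10.51 in Undiff and 9.72 and 9.78 at Day_1. Of 5 markers each, macrophage markers had 2 higher and 1 lower at Day_1, endothelial markers 2 higher and adipocyte markers 1 higher. The part of these markers' cell types in the members' changes was not tested.

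**Figure D3:**
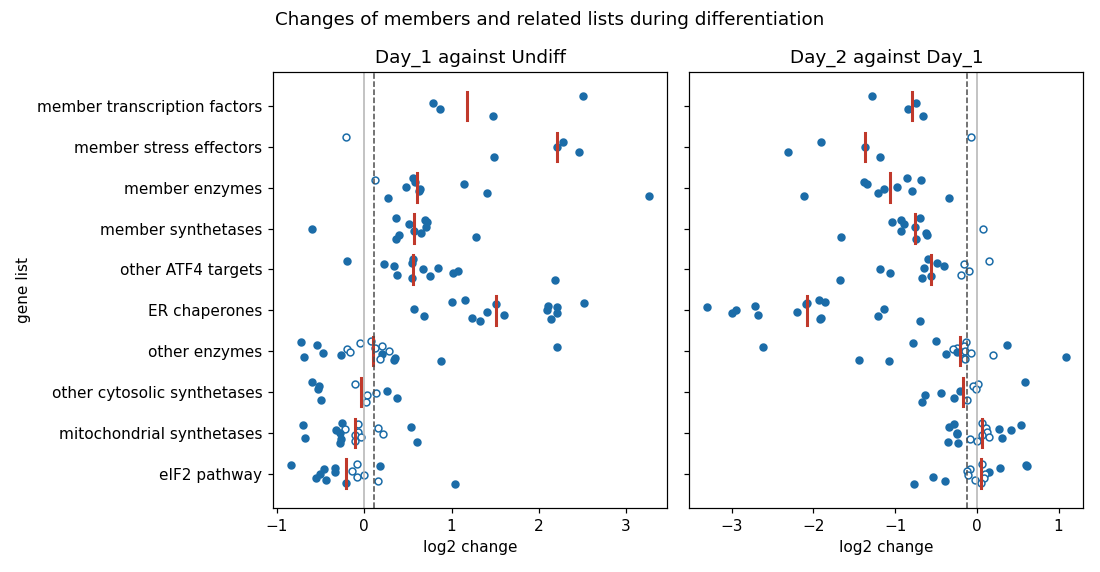
Log2 change of each gene (points; filled where called) by list, for Day_1 against Undiff on the left and Day_2 against Day_1 on the right, with the list median in red and the median of all genes as a dashed line. The 4 member lists, the other ATF4 targets and the ER chaperones lie right of the dashed line on the left and left of it on the right, while the remaining synthetases and the eIF2 pathway straddle 0.

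On the second day the members fell again. At Day_2 against Day_1, 28 of 30 fell and none rose, while 53.6% of all genes were called (21.1% higher and 32.4% lower). This comparison shares the Day_1 arrays with the one above. The members' median was -0.91, against -0.12 for all genes (a distance of -0.79, which centring cannot alter). Of all called genes, 39.4% were higher in the main scaling and 21.2% under that centring. Ppp1r15a changed by -2.31 ± 0.07 (SE, adjusted p = 2.4e-09), Cth by -2.11 ± 0.08 (SE) and Trib3 by -1.90 ± 0.08 (SE). Wars again led the synthetases at -1.66 ± 0.06 (SE), and all 10 enzymes fell, from Cbs at -0.34 to Cth. Phgdh read 10.57 and 10.49 in Undiff, 11.10 and 11.12 at Day_1 and 9.72 and 9.75 at Day_2, a change of -1.38 ± 0.07 (SE, adjusted p = 5.0e-08). Its Day_2 arrays were the lowest of the 3 groups. Ddit4 (-0.08) and Mars (0.08) were not called. The Cbs call was lost without 1 Day_1 array (adjusted p = 0.0503). All 15 ER chaperones fell too (median -2.07, Sdf2l1 at -3.30), as did 9 of 13 other ATF4 targets (Gdf15 at -1.18), whereas the eIF2 pathway had 4 higher and 3 lower of 15. Beside the members, all 6 markers of differentiating muscle were higher (median 1.92) and 3 of 5 myoblast markers were higher and 1 lower. Of other cell types, 4 of 5 macrophage markers (Cd14 at -0.41), 3 of 5 endothelial markers (Cdh5 at -0.29) and 2 of 5 adipocyte markers (Adipoq at -0.37) were lower. The part of these in the members' fall was not tested.

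Against undifferentiated cells, the members called higher at Day_2 were mostly factors and effectors, and those called lower mostly enzymes and synthetases. Of 30 members, 6 were higher and 15 lower at Day_2 against Undiff, where 29.9% of all genes were called (14.8% higher and 15.2% lower), and the median was -0.20, against -0.03 for all genes. The 6 higher members were Atf3 (1.22), Nupr1 (0.82), Chac1 (0.84), Trib3 (0.37), Sesn2 (0.31) and Cth (1.16), of which 5 are factors or effectors. Of the 11 synthetases, 9 were lower (median -0.33), with Mars at -0.52 ± 0.06 (SE, adjusted p = 4.2e-05), and Sars (0.02) and Lars (-0.06) were not called. Among the enzymes, Phgdh (-0.79 ± 0.07, SE), Psat1, Shmt2, Mthfd2 and Asns were lower. Psat1 read 12.08 and 12.04 in Undiff, 12.16 and 12.21 at Day_1 and 11.44 and 11.57 at Day_2, with Day_2 below both earlier days and a change of -0.55 ± 0.07 (SE) against Undiff. Shmt2 read 11.78 and 11.79 in Undiff, 12.29 and 12.24 at Day_1 and 11.27 and 11.30 at Day_2, a change of -0.50 ± 0.08 (SE) against Undiff. Atf4 (0.05), Cebpb (0.02) and Ppp1r15a (0.15) were not called. Of the 21 calls, 15 were kept under every setting tried. Those of Ddit4, Eprs, Tars, Asns, Sesn2 and Trib3 were lost under at least 1 setting, the first 3 also under a setting other than leaving out an array.

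After knockdown of Myolinc, day 2 cells held the members at higher levels than untransfected Day_2 cells. Of 30 members, 27 were higher and 1 lower for the siMyolinc mean against Day_2, where 38.1% of all genes were called (19.3% higher and 18.9% lower). The median change was 0.77, against 0.05 for all genes, and all 6 siMyolinc arrays lay above both Day_2 arrays for 27 members (23.1% of all genes). These cells differ from Day_2 cells in transfection as well as in Myolinc, and the comparison cannot tell the 2 apart. It also shares the Day_2 arrays with those above. Myoblast and muscle genes moved beside the members: all 6 markers of differentiating muscle were lower against Day_2 (median -2.34) and 4 of 5 myoblast markers were lower (Des at -2.93), with Myf5 higher at 0.98. In the members' direction, 2 of 5 macrophage markers (Cd14 at 0.60, Cd68 at 0.19) and 2 of 5 adipocyte markers (Adipoq at 0.24, Fabp4 at 0.20) were called higher, with a mean macrophage marker level of 6.82 to 6.89 over the siMyolinc arrays, against 6.60 and 6.64 at Day_2. The mean muscle marker level per array was 7.30 and 7.31 with siMyolinc.1, 7.91 and 7.89 with siMyolinc.2 and 7.29 and 7.24 with siMyolinc.3, against 9.92 and 10.01 at Day_2, and the part of these marker differences in the members' levels was not tested.

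Ppp1r15a had a lowest, median and highest level of 10.49, 10.66 and 10.76 over the 6 siMyolinc arrays, against 8.19 and 8.31 at Day_2, a change of 2.40 ± 0.06 (SE, adjusted p = 1.4e-10). That is the largest of the members, at 5.29-fold. Cth read 10.27, 10.36 and 10.84 by the same measures, against 8.55 and 8.74 at Day_2 (1.85 ± 0.06, SE). Trib3 read 10.57, 10.67 and 10.70, against 8.70 and 8.98 (1.81 ± 0.07, SE). Both feedback genes, Trib3 and Ppp1r15a, thus stood clear of Day_2 in every siMyolinc array. Chac1 read 12.43, 12.56 and 12.61 with siMyolinc, against 10.83 and 11.08 at Day_2 (1.58 ± 0.07, SE). Sesn2 read 10.59, 10.67 and 10.74, against 9.47 and 9.56 (1.15 ± 0.06, SE).

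The factors and most enzymes and synthetases were higher too. Nupr1 read 11.58, 11.66 and 11.81 over the siMyolinc arrays, against 10.46 and 10.68 at Day_2 (1.12 ± 0.07, SE). Atf4 read 10.81, 10.92 and 10.97, against 10.26 and 10.21 with a change of 0.67 ± 0.05 (SE, adjusted p = 8.7e-07). All 4 factors were called as higher. Wars read 11.84, 11.96 and 12.08, against 10.45 and 10.49 (1.5 ± 0.05, SE), and was the top synthetase again. Mthfd2 read 11.03, 11.09 and 11.38, against 10.01 and 10.00 (1.11 ± 0.08, SE). Asns read 12.94, 13.01 and 13.09, against 12.15 and 12.32 (0.78 ± 0.05, SE). Mars was the only member below Day_2, at -0.20 (adjusted p = 0.00668, and 0.108 without 1 Day_2 array), and Ddit4 (0.11) and Cbs (0.06) were not called. Outside the members, 15 of 15 ER chaperones (median 1.92) and 8 of 13 other ATF4 targets (Herpud1 at 1.36, Gdf15 at 1.24) were higher, against 19.3% of all genes. Eif2ak3 was lower at -0.85.

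By the members' median, the siMyolinc arrays lay less far from Day_1 than from Day_2. Against Day_1, a comparison added after the data were seen, 2 members were higher and 14 lower (42.9% of all genes called, 17.3% higher and 25.6% lower), and the members' median of -0.12 lay beside -0.07 for all genes. Under 75th-percentile centring the count became 1 higher and 22 lower, and without either Day_1 array 10 members were called in place of 16. Of all called genes, 40.3% were higher in the main scaling and 20.6% under 75th-percentile centring. Asns (-0.08), Trib3 (-0.09) and Ppp1r15a (0.10) were not called. Pycr1, at -0.82 ± 0.06 (SE, adjusted p = 4.2e-06), and Atf3, at -0.46 ± 0.07 (SE), were the furthest below Day_1, and Nupr1 was above it at 0.46 ± 0.07 (SE).

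Against the scramble siRNA, with both sides transfected, 5 of 30 members were called. For the siMyolinc mean against siScr, 1 member was higher and 4 lower, or 16.7% called (3.33% higher and 13.3% lower). Of all genes 9.09% were called (3.64% higher and 5.45% lower). The members' median was -0.04, against -0.01 for all genes. Atf4 read 10.78 and 10.77 with siMyolinc.1, 10.77 and 10.74 with siMyolinc.2, 10.65 and 10.76 with siMyolinc.3, against 10.80 and 10.60 with siScr, with overlapping arrays and a mean change of 0.04 ± 0.07 (SE, adjusted p = 0.791). Asns read 12.91 and 12.89 with siMyolinc.1, 12.96 and 12.90 with siMyolinc.2, 12.88 and 12.84 with siMyolinc.3, against 13.00 and 13.00 with siScr. Its siMyolinc arrays all lay below siScr, but the change of -0.11 ± 0.06 (SE, adjusted p = 0.318) was not called. Trib3 read 10.39 and 10.41 with siMyolinc.1, 10.29 and 10.18 with siMyolinc.2, 10.36 and 10.38 with siMyolinc.3, against 10.48 and 10.52 with siScr, likewise below siScr in all 6 arrays and not called at -0.16 ± 0.06 (SE, adjusted p = 0.127). Trib3 was called as lower under limma's intensity trend with a robust prior (adjusted p = 0.0490). The members called were Cebpb as higher and Pycr1, Aldh18a1, Sesn2 and Mars as lower. In the same arrays all 6 markers of differentiating muscle were lower against siScr, with a median of -1.17 and a range of -1.70 to -0.28 (Actc1 at -1.70, Myog at -1.08). The mean level over the 6 was 6.82 and 6.88 with siMyolinc.1 and 7.51 and 7.49 with siMyolinc.2. With siMyolinc.3 it was 6.84 and 6.82, against 8.09 and 8.24 with siScr. Of 5 myoblast markers, 3 were lower and 0 higher, with a list range of -1.32 to 0.05. Of 5 macrophage markers 2 were higher (Cd14 at 0.43, Cd68 at 0.51), with mean levels of 6.30 to 6.42 over the siMyolinc arrays, against 6.19 and 6.15 with siScr. Their part in the members' changes was not tested.

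**Figure D4:**
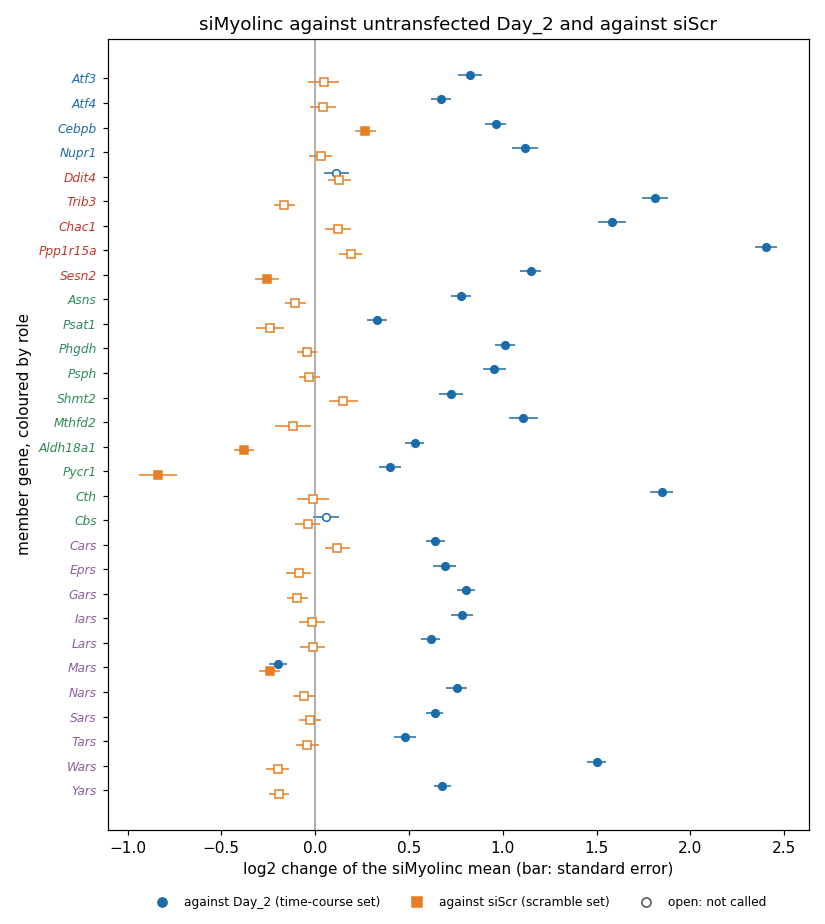
Log2 change of the siMyolinc mean for the 30 members (rows, coloured by role) against untransfected Day_2 in the time-course set (circles) and against siScr in the scramble set (squares), with standard errors as bars and open symbols where not called. The circles lie right of 0 for every member but Mars, and the filled squares are Pycr1, furthest left, Aldh18a1, Sesn2, Mars and Cebpb.

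Pycr1 showed the largest change against siScr among the members. It read 9.77 and 9.87 with siMyolinc.1, 10.09 and 10.18 with siMyolinc.2, 10.08 and 9.91 with siMyolinc.3, against 10.63 and 11.01 with siScr. All 6 siMyolinc arrays lay below both siScr arrays, as they did for 10.4% of all genes. The siMyolinc mean changed by -0.84 ± 0.10 (SE, adjusted p = 0.001), and the single siRNAs by -1.0, -0.69 and -0.83. The call for siMyolinc.2 (adjusted p = 0.031) was lost when 1 siScr array was left out (adjusted p = 0.145), when either siMyolinc.2 array was left out (0.156 and 0.25), when either siMyolinc.1 array was left out (0.0561) and in 2 other settings. In the time-course set the same hybridisations had a lowest, median and highest Pycr1 level of 10.07, 10.24 and 10.43, against 9.84 and 9.85 at Day_2, so that Pycr1 was lower against siScr and higher against Day_2 (0.40 ± 0.06, SE). Aldh18a1, which acts at the start of the same proline pathway, read 11.08 and 11.11 with siMyolinc.1, 11.38 and 11.38 with siMyolinc.2, 11.10 and 11.11 with siMyolinc.3, against 11.55 and 11.60 with siScr. It too lay below siScr in all 6 arrays, and the mean changed by -0.38 ± 0.05 (SE, adjusted p = 0.00272). The call for Aldh18a1 was lost with the 6 arrays fitted as 1 group (adjusted p = 0.0797).

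The other calls against siScr were small. Cebpb read 9.21 and 9.18 with siMyolinc.1, 8.84 and 8.90 with siMyolinc.2, 9.20 and 9.17 with siMyolinc.3, against 8.79 and 8.85 with siScr, a mean change of 0.27 ± 0.06 (SE, adjusted p = 0.0179), and its arrays overlapped those of siScr. The call was lost without 1 siScr array at a time (adjusted p = 0.105 and 0.0701), without 1 siMyolinc.1 array (0.0522), without 1 siMyolinc.2 array (0.0558) or with the 6 arrays as 1 group (0.244). Mars read 9.61 and 9.65 with siMyolinc.1, 9.72 and 9.72 with siMyolinc.2, 9.66 and 9.62 with siMyolinc.3, against 9.93 and 9.87 with siScr, a mean change of -0.24 ± 0.06 (SE, adjusted p = 0.0264). The Mars arrays of siMyolinc all lay below those of siScr. Sesn2 read 10.27 and 10.43 with siMyolinc.1, 10.43 and 10.39 with siMyolinc.2, 10.32 and 10.31 with siMyolinc.3, against 10.58 and 10.64 with siScr, again with all 6 below, and changed by -0.26 ± 0.06 (SE, adjusted p = 0.0364). Both calls were lost under 75th-percentile centring (adjusted p = 0.0740 for Mars and 0.0724 for Sesn2) and in 8 other settings each, leaving out either siScr array among them (Mars 0.139 and 0.0842, Sesn2 0.0959 and 0.206).

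The 3 comparisons by single siRNA share the siScr arrays. siMyolinc.1 had 2 members higher and 5 lower, 23.3% of the members (11.3% of all genes called, 4.15% higher and 7.13% lower). siMyolinc.2 had 1 lower, 3.33% of the members (1.35% of all genes, 0.718% higher and 0.629% lower). siMyolinc.3 had 1 higher and 5 lower, 20% of the members (9.11% of all genes, 3.67% higher and 5.43% lower). The calls not yet named were Psat1, Ppp1r15a and Yars. Psat1 read 11.48 and 11.52 with siMyolinc.1, 11.75 and 11.87 with siMyolinc.2, 11.57 and 11.51 with siMyolinc.3, against 11.75 and 11.97 with siScr (-0.36 ± 0.09, SE, for siMyolinc.1). Yars read 10.87 and 10.84 with siMyolinc.1, 11.09 and 11.13 with siMyolinc.2, 10.89 and 10.87 with siMyolinc.3, against 11.11 and 11.17 with siScr (-0.29 for siMyolinc.1 and -0.26 for siMyolinc.3). Ppp1r15a changed by 0.28 ± 0.08 (SE) with siMyolinc.1 and was lost in most settings, its highest adjusted p being 0.211 without 1 siMyolinc.1 array. The Psat1 and Yars calls with siMyolinc.1 were lost under 75th-percentile centring (adjusted p = 0.0517 and 0.0684). They were also lost with only the arrays compared (0.0665 and 0.0605) and with the series matrix (0.0862 and 0.0519). Yars with siMyolinc.3 was lost in these settings too, at 0.170 with only the arrays compared. Leaving out single arrays also ended these calls. Only Pycr1 and Aldh18a1 kept their calls under every setting tried, with siMyolinc.1 and siMyolinc.3. Under 75th-percentile centring the share of higher genes among all called became 53.9% in place of 36.8% for siMyolinc.1, 53.7% in place of 40.3% for siMyolinc.3 and 53.5% in place of 40.1% for the mean. For the siMyolinc mean against siScr, 3.64% of all genes were higher and 5.45% lower. Of the related lists, 6 of 15 ER chaperones were lower there and none higher (Sel1l at -0.40). Other ATF4 targets had 1 higher (Gdf15 at 0.44) and 3 lower (Stc2 at -0.44) of 13. No other cytosolic synthetase of 10 was called by limma, with 4 at an unadjusted p under 0.05. With siMyolinc.1 alone, 1 of those 10 was called, as higher.

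The 3 siRNAs differed from each other at 4 members by a moderated F test, which called 4.04% of all genes. Cth read 9.92 and 9.99 with siMyolinc.1, 10.42 and 10.44 with siMyolinc.2, 9.85 and 9.99 with siMyolinc.3, against 10.27 and 9.96 with siScr. Both siMyolinc.2 arrays lay above the 4 other siMyolinc arrays (adjusted p = 0.0394). Atf3 read 10.75 and 10.82 with siMyolinc.1, 11.23 and 11.25 with siMyolinc.2, 10.55 and 10.75 with siMyolinc.3, against 10.97 and 10.72 with siScr (adjusted p = 0.0236), and Phgdh read 10.32 and 10.29 with siMyolinc.1, 10.61 and 10.65 with siMyolinc.2, 10.28 and 10.26 with siMyolinc.3, against 10.46 and 10.44 with siScr (adjusted p = 0.0274), with siMyolinc.2 highest of the 3 siRNAs in both. Cebpb (adjusted p = 0.043) ran the other way, with siMyolinc.2 lowest. In direct comparisons, siMyolinc.1 against siMyolinc.2 called 5 members (1 higher and 4 lower, with 4.75% of all genes called, 1.49% higher and 3.26% lower), siMyolinc.3 against siMyolinc.2 called 4 (1 higher and 3 lower, with 4.25% called, 1.57% higher and 2.68% lower) and siMyolinc.1 against siMyolinc.3 called no member and 0% of genes by limma (0 of 30 members had an unadjusted p under 0.05). At least 1 F-test call depended on each array: no member was called without any 1 of the siMyolinc.1 or siMyolinc.2 arrays, 2 were called without either siMyolinc.3 array and 3 without either siScr array.

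**Figure D5:**
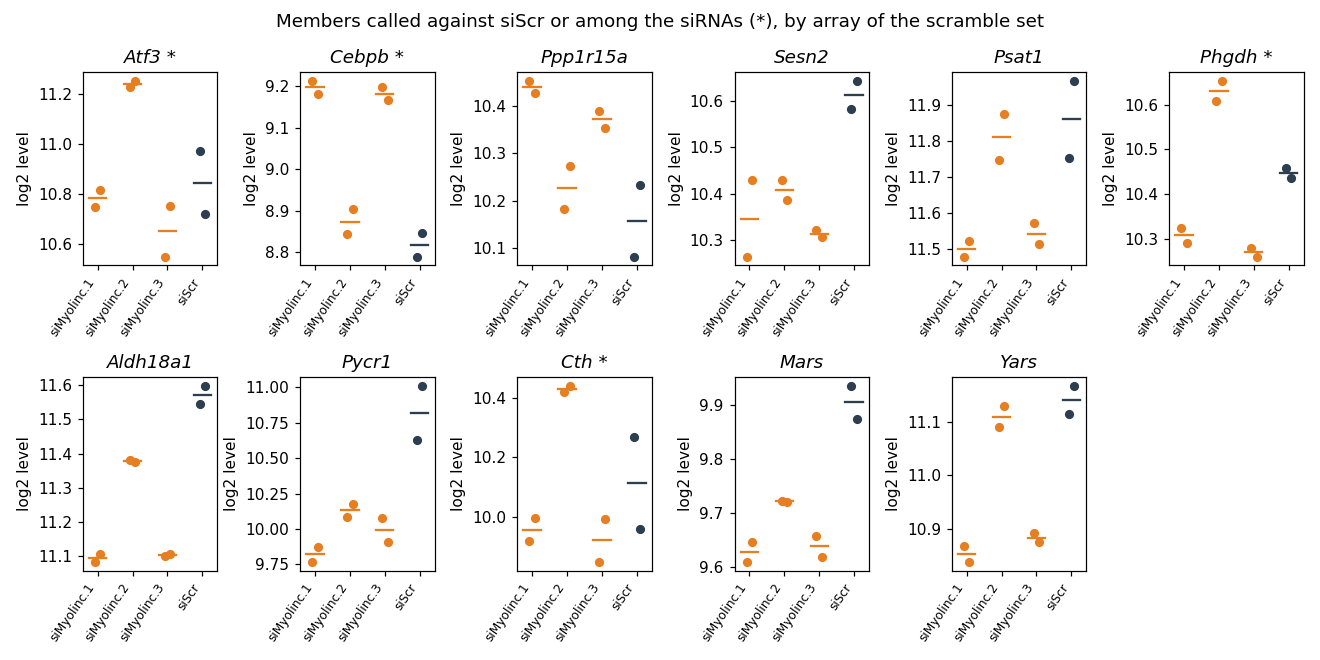
Log2 levels in each array of the scramble set (points, 2 per group; bars are group means) for the 11 members called for any siRNA against siScr or by the F test among siRNAs (marked *). Pycr1 and Aldh18a1 are lower in all 6 siMyolinc arrays than in siScr, and Atf3, Phgdh and Cth are higher with siMyolinc.2 than with the other siRNAs.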

How the data were processed

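Gene expression was measured on Affymetrix arrays of C2C12 cells. The authors deposited log2 values per transcript cluster, for which RMA and limma are named per the submitters' processing notes. Their versions, the annotation and the build were not given in the sources used here. 1 array column of the time-course sheet is listed as a score, because 23 cells of it, at genes whose symbols had turned into dates, hold day numbers above 100 as deposited, and these were set to missing. The authors' deposited p-values and fold changes were not used for any result. No per-sample column was left unused (0 columns).

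From these values, each set was fitted by itself over 20193 genes with limma 3.58.1 in R 4.3.3 (lmFit, contrasts.fit and eBayes, 1 coefficient per group, all groups of the set sharing 1 estimate of the spread), with Benjamini-Hochberg adjustment over all genes and a threshold of 0.05. Precision is limited by 2 arrays a group: the median standard error was 0.0869 for 1 siRNA against siScr, 0.0710 for the siMyolinc mean against siScr, 0.0801 between 2 time-course groups and 0.0654 for the siMyolinc mean against Day_2. The siMyolinc arrays of the sets were matched by their deviations from gene means over 19464 genes: arrays of the same label correlated at 0.893 to 0.940, and others at 0.555 or less.

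The members and lists were chosen with earlier results of these data known. All members were accounted for, with values per array for up to 8 called members per comparison whose arrays did not overlap, in order of size, and for Atf4, Asns and Trib3; other lists were given by counts with up to 4 genes, a few kinases and chaperones excepted. Promoters came from RefSeq's table for GRCm38.p6, where 1 member matched by its current symbol. The fit was tested on simulated data. Alternatives were 75th-percentile centring, a trended robust prior, dim genes left out, fitting only the arrays compared, the replicate number as a block, the 6 siMyolinc arrays as 1 group, the series matrix values and leaving out each array. Atf5, Ddit3 and Aars are not analysed here.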

Additional observations from a re-analysis of the deposited data

Results flagged for a closer look

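The 3 siMyolinc siRNAs differed among themselves at 4 members by the moderated F test. The adjusted p was 0.0236 for Atf3, 0.0274 for Phgdh, 0.0394 for Cth and 0.043 for Cebpb. Against siScr, Atf3 changed by -0.06 with siMyolinc.1, 0.40 with siMyolinc.2 and -0.20 with siMyolinc.3. Phgdh changed by -0.14, 0.18 and -0.18, and Cth by -0.16, 0.32 and -0.19, in the same order of siRNAs. Cebpb changed by 0.38, 0.06 and 0.37. Of these changes against siScr, those of Cebpb with siMyolinc.1 and siMyolinc.3 were called.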

How the results depend on the processing

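In the comparisons of days and of the siMyolinc mean with Day_2, the count of members called stayed within 1.5 times under every setting: 27 to 29 at Day_1 against Undiff, 27 to 29 at Day_2 against Day_1, 17 to 24 at Day_2 against Undiff, and 27 or 28 for the siMyolinc mean against Day_2. No called member changed direction under any alternative in those 4 comparisons, in the siMyolinc mean against Day_1 or in the 4 comparisons with siScr. Counts against siScr were less stable. For siMyolinc.1 (7 members) they were 4 with 75th-percentile centring, 3 with only the arrays compared, 3 with all transcript clusters of the series matrix and 2 to 6 with 1 array left out. For siMyolinc.2 (1 member) they were 3 with the trended robust prior, 0 with only the arrays compared, 0 with the series matrix and 0 to 1 with 1 array left out. For siMyolinc.3 (6 members) they were 3 with 75th-percentile centring, 2 with only the arrays compared, 3 with the series matrix and 3 with each array left out in turn. For the siMyolinc mean (5 members) they were 3 with 75th-percentile centring, 10 with the trended robust prior, 3 with the series matrix, 1 with the 6 arrays as 1 group and 2 to 5 with 1 array left out. The F test among siRNAs (4 members) called 7 with the trended prior, 0 with the series matrix and 0 to 3 with 1 array left out, and the siMyolinc mean against Day_1 (16 members) 10 to 16 with 1 array left out and 12 to 23 under the other alternatives, 23 being 75th-percentile centring. Same-numbered arrays deviated together at correlations of -0.11 to 0.22 (6 pairs, scramble set) and -0.17 to 0.24 (15 pairs, time-course set). Such correlations cannot exclude a batch shared by same-numbered arrays of some groups, and the labels give no batch. The main fit used no replicate block. With the replicate number as a block, siMyolinc.1 had 6 members called, siMyolinc.2 had 1, siMyolinc.3 had 3, the mean against siScr had 5, the F test had 2, and the mean against Day_1 had 15. Some of these settings use fewer arrays or test more genes, and others do not. The cause of these moves was not tested.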

Other observations

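Besides the members, branched-chain aminotransferase genes were lower at Day_2 than at Day_1 and higher with siMyolinc than at Day_2. Both comparisons share the Day_2 arrays. Bcat1, the cytosolic form, changed by -1.45 at Day_2 against Day_1 and by 1.32 for the siMyolinc mean against Day_2, and Bcat2, the mitochondrial form, by -1.07 and 0.80. Glul, which makes glutamine, ran the other way, at 1.08 and -0.92. All of these passed limma's adjusted threshold, and these genes were picked after their values were seen.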
